A study of Mus musculus with 9 samples.

Results

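Immune checkpoint ligands are cell-surface proteins that restrain T cells, natural killer cells or macrophages. The expression of 6 of them, *Vsir*, *Cd274*, *Cd276*, *Cd47*, *Pvr* and *Nectin2*, was examined in mouse mammary tumours that differ in metastatic ability. The genes were chosen by name for this function, with earlier results of these data known, and all 6 were among the 14108 genes counted in each tumour. RNA-seq of 9 primary tumours was available, and each of 3 models (HR1, LM1 and LM9) gave 3 of them. HR1 is a non-metastatic line taken from mammary tumours driven by mutant *PIK3CA* (H1047R) under the CAG promoter. LM1 and LM9 are lines grown out of lung metastases, which arose from HR1 cells with a doxycycline-inducible *piggyBac* mutagenesis system. For each tumour, 250000 cells were placed in Matrigel and PBS into the mammary fat pad of a female NOD/SCID mouse, 4 to 8 weeks old, and GFP+ cells were sorted from the tumour before stranded mRNA sequencing. Each model is a single line, so p-values measure the spread between tumours of 1 line. NOD/SCID mice lack T and B cells but keep macrophages. The T cells on which most of these ligands can act were thus missing from the host, while the macrophages on which CD47 acts were present.

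VISTA, the product of *Vsir*, is an inhibitory molecule of the B7 family that is known mainly from myeloid cells and can act as a ligand or as a receptor on T cells. PD-L1, encoded by *Cd274*, binds PD-1 on activated T cells, and its transcription is induced by interferon-γ. B7-H3, encoded by *Cd276*, is a B7 family member found on many carcinomas. CD47 binds SIRPα on macrophages and acts as a signal against phagocytosis. PVR (CD155) and NECTIN2 (CD112) are nectin-like adhesion molecules that bind the inhibitory receptors TIGIT and, for CD155, CD96 or, for CD112, PVRIG, as well as the activating receptor CD226.

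The 6 genes lie on 5 chromosomes of the mouse genome (GRCm38, the same build as mm10). *Vsir* is at chr10:60346851-60372684 on the plus strand, inside the span of *Cdh23* on the opposite strand, with which it shares no exon base. *Cd274* is at chr19:29367455-29388095 (plus strand) and *Cd47* at chr16:49800533-49915010 (plus strand). *Cd276* is at chr9:58524298-58555437 on the minus strand. *Nectin2* (chr7:19716644-19750483) and *Pvr* (chr7:19903578-19921160) are both on the minus strand of chromosome 7, 153095 bases apart. Genes on the opposite strand share 14.11% of the exon bases of *Cd274*, 11.37% of *Cd276* and 3.86% of *Nectin2*. No source used here gives the strand setting of the counts, so reads of these partners could not be told apart.

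RefSeq promoters (GRCm38.p6), from 250 bases before to 50 bases after a transcript's start, were given for 5 of the 6 genes, with none for *Pvr*. They were searched on both strands for the sites of NFI factors, since NFIB is the study's factor, and for those of HIF. The full NFI site, TTGGC and GCCAA with 5 bases between them, was in no promoter of the 5 and in 0.0365% of 32851 promoters. Its half-site, TTGGC, which the full site contains, was in those of *Vsir*, *Cd276*, *Cd47* and *Nectin2*, and in 46.7% of all promoters. The HIF core GCGTG was in the promoters of *Cd274*, *Cd276*, *Cd47* and *Nectin2* and in 32.4% of all, and the form ACGTG was in those of *Cd274* and *Cd47* and in 19.6% of all. Windows of 29 bases are shown for 3 genes called in LM9 versus HR1 below, 5′ to 3′ along the gene, with the matched letters in capitals.
Vsir, chr10:60346623-60346651, plus strand, NFI half-site on the opposite strand: ggagaacagggaGCCAAagtcctgcctcc
Cd274, chr19:29367225-29367253, plus strand, HIF core: actggaattaagGCGTGtgtcaccgcacc
Nectin2, chr7:19749686-19749714, minus strand, first HIF core: ggttgtgtgtggGCGTGgctccatgtcga
Nectin2, chr7:19749665-19749693, minus strand, second HIF core: catgtcgagtggGCGTGgtcaaatagtta
These matches describe the letters in the windows, and binding was not measured at them in these data. The *Vsir* window lies in an intron of *Cdh23*, and the *Cd274* window lies in the first exon of the neighbouring gene *Plgrkt* on the opposite strand.

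Total counts lay between 32393958 and 46681945 per tumour, and levels are given as CPM (counts scaled to the library size) after TMM normalisation. Log2 fold changes, their standard errors (SE) and Benjamini-Hochberg adjusted p-values came from the quasi-likelihood F-test of edgeR over 14086 genes, and a gene was called where the adjusted p was under 0.05. *Nfib*, by which the study classes the models, was at 1343 CPM in the tumour labelled HR1 replicate 1 against 23.9 and 18.3 CPM in HR1 replicates 2 and 3. Its levels in the metastatic models were 719 ± 121 CPM (LM1) and 512 ± 83.2 CPM (LM9; mean ± s.d., n = 3). The tumour labelled HR1 replicate 1 thus goes against its group at *Nfib*, and its log2 CPM correlated less with the other HR1 tumours (r = 0.878 and 0.891 across genes) than those did with each other (r = 0.961). The results of the ligands are therefore given with and without it.

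*Vsir* was the only one of the 6 ligands that was called lower in the metastatic models with all 9 tumours. It was at 30.6, 40.5 and 25.4 CPM in the 3 HR1 tumours. It was at 5.10, 3.06 and 4.32 CPM in the LM1 tumours and at 5.24, 4.21 and 5.49 CPM in the LM9 tumours. Every HR1 tumour lay above every LM tumour, and LM1 and LM9 overlapped. *Vsir* was 7.06-fold lower in LM1 and LM9 together than in HR1 (log2 fold change −2.82, SE 0.21, edgeR adjusted p = 5.15e-05). The two-sided exact permutation test of log2 CPM gave p = 0.0238, the smallest possible for 6 against 3 tumours. The log2 fold change was −2.95 (SE 0.27, edgeR adjusted p = 0.000201) in LM1 and −2.69 (SE 0.27, edgeR adjusted p = 0.000197) in LM9. LM9 and LM1 did not differ beyond their spread (0.26, SE 0.25, edgeR adjusted p = 0.490). At *Vsir* the tumour labelled HR1 replicate 1 was 0.929 times the mean of the other HR1 tumours, and without it the log2 fold change was −2.85 (SE 0.21, edgeR adjusted p = 5.94e-06). No stretch of 30 bases in its transcripts occurs in another gene's transcripts.

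**Figure D1:**
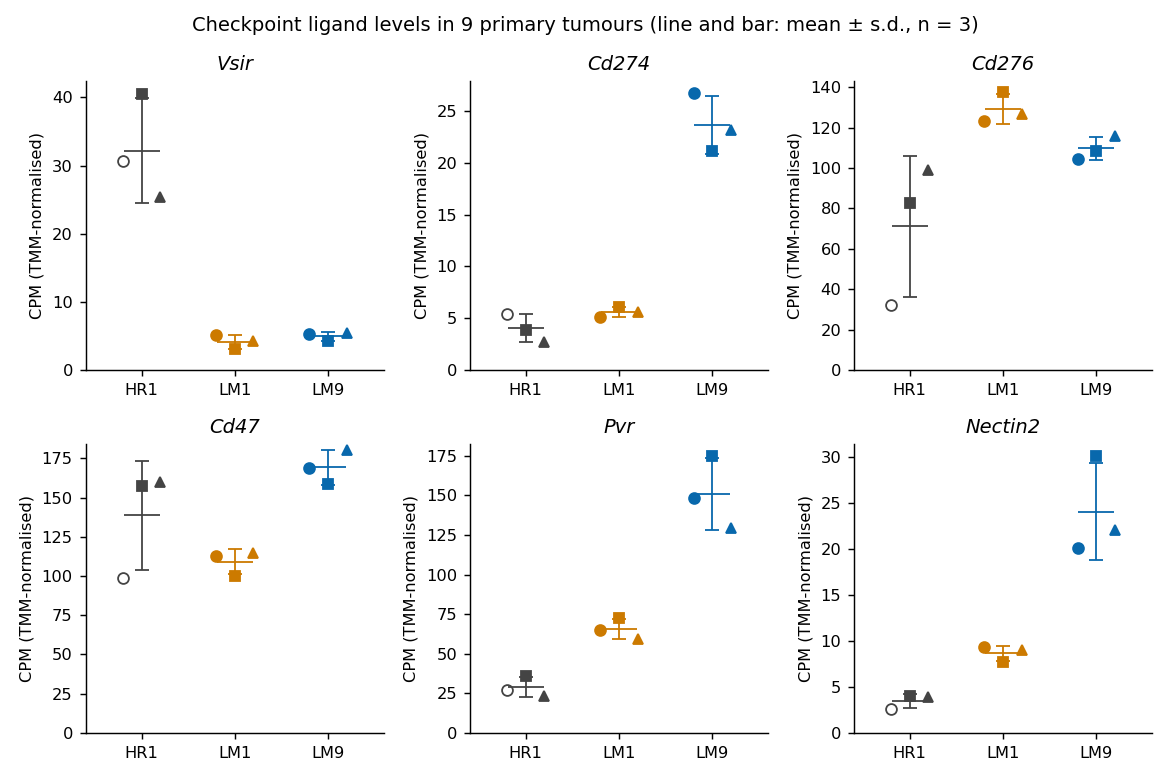
Levels of the 6 checkpoint ligands in CPM (linear axes from 0) in the HR1, LM1 and LM9 tumours. Circles, squares and triangles are replicates 1, 2 and 3, the open circle is the tumour labelled HR1 replicate 1, and lines with bars are mean ± s.d. (n = 3). *Vsir* is high only in the 3 HR1 tumours, at 25.4 to 40.5 CPM, while *Pvr* and *Nectin2* step up from HR1 to LM1 to LM9 with no overlap between the models.

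Markers of myeloid cells, where *Vsir* is known to be expressed, moved in the same direction. Of 19 myeloid markers, 13 were called lower and 0 higher in LM1 and LM9 versus HR1, and the median of the 19 was −1.92 on the log2 scale. Of all tested genes, 23.6% were called lower and 43.6% called in either direction. The markers called lower include *Mrc1* and *C1qc*, a receptor and a complement subunit of tissue macrophages. The summed level of the 19 was 872, 1356 and 292 CPM in HR1 replicates 1, 2 and 3, from 239 to 267 CPM in LM1 and from 203 to 259.9 CPM in LM9, and none was at 0 in any tumour. *Cd68* alone gave 127 CPM on average in LM9. The order of the 3 HR1 tumours was the same for this sum and for *Vsir*. HR1 replicate 3, where *Vsir* was at 25.4 CPM, lay above every LM tumour in this sum. Its lead over LM1 replicate 1 (292 against 267 CPM) rested on *Cd68*, which gave 41.2 and 15.9 CPM of these sums. Single markers of that tumour, named here after their values were seen, stood on both sides of the LM tumours. *Csf1r*, the receptor of the growth factor CSF1 on macrophages, was at 17.0 CPM in it, below the 18.2 to 21.1 CPM of LM1 and above LM9, and *Ptprc*, the pan-leukocyte marker CD45, was lower than in any other tumour, at 2.29 CPM. *Adgre1*, a surface receptor of macrophages, was at 14.1 CPM in it, above the 4.62 to 10.3 CPM of the LM tumours. *Cd68* was at 41.2 CPM in it, above the 15.9 to 17.9 CPM of LM1 and below LM9. *Itgam* (5.40 CPM) and *Tyrobp* (10.5 CPM) were in it within the range of the LM tumours. The part of these cells in the level of *Vsir* was not tested. In these bulk samples, fewer cells that express a gene and less of its RNA per cell cannot be told apart.

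**Figure D2:**
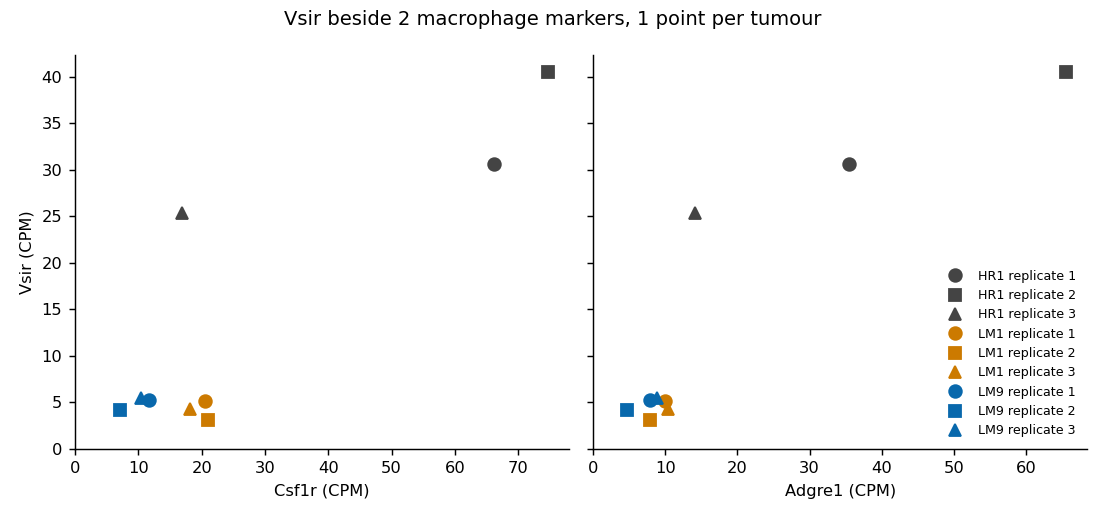
*Vsir* (CPM, vertical axis) beside the macrophage markers *Csf1r* (left) and *Adgre1* (right), in CPM on linear axes from 0, with 1 point per tumour. HR1 replicate 3 (grey triangle) has 17.0 CPM of *Csf1r*, in the range of LM tumours, 14.1 CPM of *Adgre1*, above all LM tumours, and 25.4 CPM of *Vsir*, while all LM1 and LM9 tumours lie at or under 5.49 CPM of *Vsir*.

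*Cd274* was higher in LM9 than in both other models. The HR1 tumours had 5.45, 3.92 and 2.75 CPM, the LM1 tumours 5.12, 6.09 and 5.64 CPM, and the LM9 tumours 26.7, 21.1 and 23.2 CPM. The lowest LM9 tumour was above every HR1 and LM1 tumour, whereas HR1 and LM1 overlapped through the tumour labelled HR1 replicate 1. *Cd274* was 5.86-fold higher in LM9 than in HR1 (log2 fold change 2.55, SE 0.27, edgeR adjusted p = 0.000269) and 4.21-fold higher than in LM1 (2.07, SE 0.26, edgeR adjusted p = 0.00183). LM1 did not pass the threshold against HR1 (0.48, SE 0.26, edgeR adjusted p = 0.176). Without the tumour labelled HR1 replicate 1 it did (0.76, SE 0.21, edgeR adjusted p = 0.0120). Of the 30-base windows in *Cd274* transcripts, 2.36% also occur in other genes.

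*Pvr* and *Nectin2*, the partners of TIGIT, were higher in LM1 than in HR1 and higher again in LM9. *Pvr* was at 27.3, 35.7 and 23.5 CPM in HR1, 64.9, 72.6 and 59.4 CPM in LM1, and 148, 175 and 129 CPM in LM9. None of the 3 models overlapped. Its log2 fold change was 1.19 (SE 0.19, edgeR adjusted p = 0.00201) in LM1 versus HR1, 2.39 (SE 0.20, edgeR adjusted p = 8.83e-05) in LM9 versus HR1 and 1.20 (SE 0.19, edgeR adjusted p = 0.00407) in LM9 versus LM1. *Nectin2* was much lower in counts, at 2.56, 3.96 and 3.91 CPM in HR1, 9.28, 7.75 and 8.97 CPM in LM1, and 20.1, 30.1 and 22.0 CPM in LM9. Here too the models were separate. The log2 fold changes were 1.31 (SE 0.24, edgeR adjusted p = 0.00392), 2.79 (SE 0.25, edgeR adjusted p = 0.000136) and 1.47 (SE 0.24, edgeR adjusted p = 0.00481) in the same order. In LM1 and LM9 together, *Pvr* was 3.45-fold (edgeR adjusted p = 0.000171), *Nectin2* 4.14-fold (edgeR adjusted p = 0.000289) and *Cd274* 2.86-fold (edgeR adjusted p = 0.00136) higher than in HR1. Without the tumour labelled HR1 replicate 1 the log2 fold changes were 1.75 for *Pvr*, 1.88 for *Nectin2* and 1.79 for *Cd274*.

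*Cd276* was counted in every tumour, and whether it was called depended on the tool and on the HR1 tumours used. The HR1 tumours had 32.2, 82.5 and 99.0 CPM, the LM1 tumours 123, 138 and 127 CPM, and the LM9 tumours 105, 108 and 116 CPM. Every LM tumour was above every HR1 tumour, but the tumour labelled HR1 replicate 1 had 0.355 times the mean of the other 2 HR1 tumours. With all tumours, LM1 and LM9 versus HR1 missed the threshold (log2 fold change 0.74, SE 0.30, edgeR adjusted p = 0.0736), although the exact permutation p was 0.0238. Without that tumour the difference was smaller and passed it (0.40, SE 0.11, edgeR adjusted p = 0.0129). Without HR1 replicate 3 in its place it also passed (1.05, edgeR adjusted p = 0.0282), as it did with all 9 tumours by DESeq2 (adjusted p = 0.0390) and limma-voom (adjusted p = 0.0415). In LM1 versus HR1 the values were 0.86 (edgeR adjusted p = 0.0760) with all tumours and 0.52 (edgeR adjusted p = 0.00622) without the tumour labelled HR1 replicate 1. In LM9 versus HR1 they were 0.62 (edgeR adjusted p = 0.163) and 0.28 (edgeR adjusted p = 0.0814), and none of the 17 alternatives called it (lowest adjusted p = 0.0549).

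*Cd47* differed little between HR1 and the LM models as a whole. It was at 98.8, 157 and 159.8 CPM in HR1, at 113, 100.3 and 115 CPM in LM1, and at 169, 158 and 180.3 CPM in LM9. LM9 lay above LM1 without overlap, and HR1 overlapped with both, with 2 of the 3 LM9 tumours above every HR1 tumour. LM1 and LM9 versus HR1 gave a log2 fold change of −0.03 (SE 0.16, edgeR adjusted p = 0.901). *Cd47* was 1.55-fold higher in LM9 than in LM1 (log2 fold change 0.63, SE 0.19, edgeR adjusted p = 0.0425). This call was lost with library sizes in place of TMM (edgeR adjusted p = 0.0799), with the replicate number as a block (edgeR adjusted p = 0.0666) and when any LM1 or LM9 tumour was left out (edgeR adjusted p from 0.0990 to 0.130). The tumour labelled HR1 replicate 1 was 0.623 times the mean of the other HR1 tumours, and without it LM1 was called lower than HR1 (−0.53, SE 0.11, edgeR adjusted p = 0.00350).

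**Figure D3:**
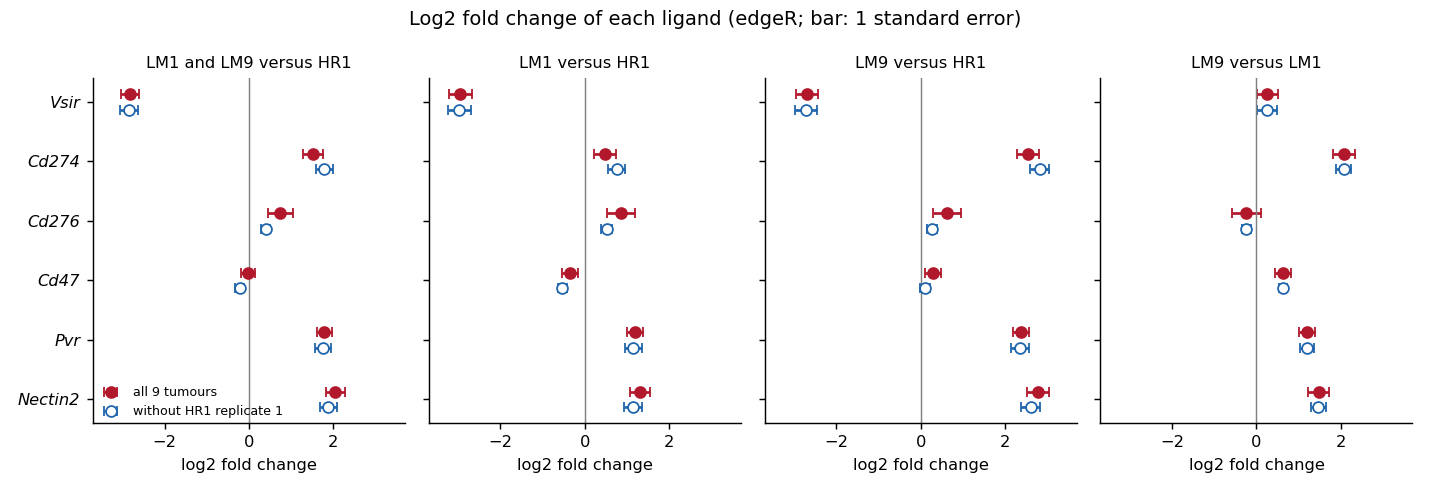
Log2 fold changes of the 6 ligands in the 4 comparisons (horizontal axes, edgeR, bars are 1 SE), with all 9 tumours (filled) and without the tumour labelled HR1 replicate 1 (open). *Vsir* is near −2.8 in each comparison with HR1 whether or not that tumour is used, while *Cd276* in LM1 and LM9 versus HR1 moves from 0.74 to 0.40.

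Counted over the 6 ligands, 3 were called higher and 1 lower in LM1 and LM9 versus HR1. Calls were common in this comparison, with 43.6% of all tested genes called, 19.9% higher and 23.6% lower. In LM1 versus HR1, 2 were higher and 1 lower (all genes 35.5% called, 16.7% higher and 18.7% lower). In LM9 versus HR1, 3 were higher and 1 lower (all genes 42.3% called, 20.4% higher and 21.9% lower). In LM9 versus LM1, 4 were higher and 0 lower (all genes 22.0% called, 11.5% higher and 10.6% lower). The 2 ligands not called there were *Vsir* (edgeR unadjusted p = 0.332) and *Cd276* (edgeR unadjusted p = 0.496). The median log2 fold changes of the ligands were 1.13, 0.67, 1.50 and 0.92 in these 4 comparisons, against −0.05, −0.04, −0.05 and 0.0046 over all tested genes. The first 3 comparisons share the HR1 tumours. Without the tumour labelled HR1 replicate 1, the counts were 4 higher and 1 lower, 4 and 2, 3 and 1, and 4 and 0, while the share of all tested genes called was 56.0%, 52.8%, 55.7% and 45.5%. Of all tested genes, 27.5%, 26.9%, 27.9% and 22.9% were then higher and 28.5%, 26.0%, 27.8% and 22.5% lower.

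Levels were compared between the ligands per exon length, as CPM divided by the exon length in kilobases (RPKM). In HR1, *Cd47* (22.1 ± 5.51 RPKM, s.d., n = 3) and *Cd276* (19.5 ± 9.52) stood highest and overlapped, followed by *Vsir* (6.42 ± 1.53) and *Pvr* (4.71 ± 1.02), which overlapped too. *Cd274* (1.12 ± 0.374) and *Nectin2* (0.995 ± 0.228) were lowest and could not be ordered. In LM1 the order was *Cd276*, *Cd47*, *Pvr*, *Nectin2*, *Cd274* and *Vsir*, from 35.3 ± 2.07 to 0.830 ± 0.206 RPKM, with no overlap between neighbours. In LM9, *Cd276* (29.99 ± 1.56), *Cd47* (27.0 ± 1.74) and *Pvr* (24.6 ± 3.74) overlapped in turn, *Nectin2* (6.88 ± 1.52) and *Cd274* (6.53 ± 0.773) overlapped below them, and *Vsir* (0.993 ± 0.135) was lowest. *Vsir* was lowest in both LM models by this length. The place of *Pvr* depended on the length used. With the longest transcript in place of the union of exons, *Pvr* was at 51.9 RPKM in LM9, above *Cd47* (32.2) and *Cd276* (30.5), and at 9.93 RPKM in HR1, above *Vsir* (6.64).

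**Figure D4:**
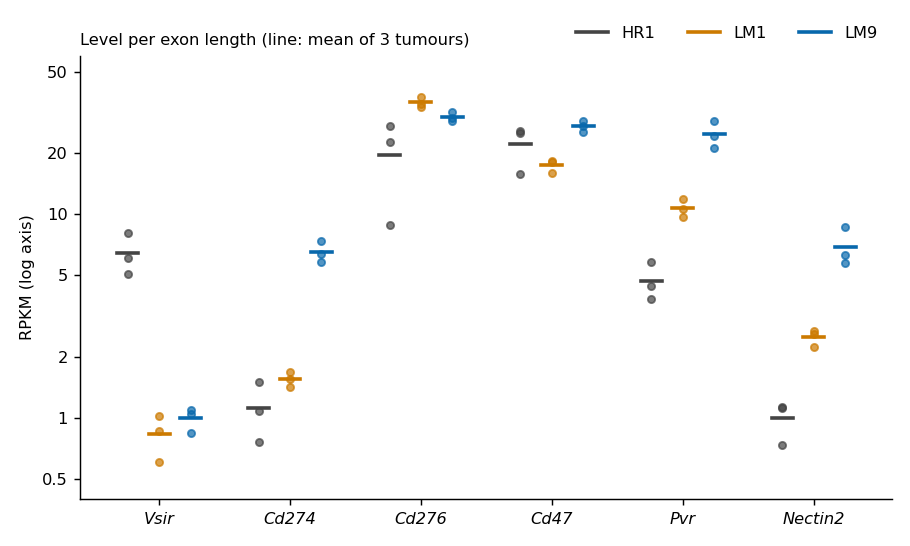
Level of each ligand per exon length, in RPKM on a log axis, with points for the 3 tumours of each model and a line for their mean. *Vsir* is between *Cd276* and *Cd274* in HR1 and lowest in LM1 and LM9, and *Pvr* moves from 4.71 RPKM in HR1 to 24.6 RPKM in LM9.

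Of 14 other inhibitory ligands 10 were among the counts, and in LM1 and LM9 versus HR1, 2 were called higher and 2 lower, with a median of −0.17. This count of 4 in 10 was near the 43.6% of all tested genes called in that comparison, which is also the background of the lists that follow (19.9% higher and 23.6% lower). *Pdcd1lg2*, which encodes PD-L2, the other ligand of PD-1, lies next to *Cd274* and moved the opposite way. It was at 3.43 ± 1.71 CPM in HR1, 0.923 ± 0.125 CPM in LM1 and 0.0891 ± 0.0596 CPM in LM9 (s.d., n = 3), and its log2 fold change in LM9 versus LM1 was −3.33 (SE 0.63, edgeR adjusted p = 0.00843). *Nectin3*, a nectin that binds both PVR and NECTIN2, was lower over LM1 and LM9 combined (log2 fold change −1.13, SE 0.27, edgeR adjusted p = 0.0102), by less without the tumour labelled HR1 replicate 1 (−0.63, edgeR adjusted p = 0.00998). It was called in LM9 versus HR1 (−1.56, edgeR adjusted p = 0.00647) and not in LM1 versus HR1 (−0.70, edgeR adjusted p = 0.125). *Lgals9*, encoding the TIM-3 ligand galectin-9, was higher over LM1 and LM9 combined (0.64, SE 0.19, edgeR adjusted p = 0.0274), at 129 ± 38.4 CPM in HR1, 140.2 ± 12.7 CPM in LM1 and 288 ± 47.1 CPM in LM9. It was called in LM9 versus HR1 (1.16, edgeR adjusted p = 0.00399) and not in LM1 versus HR1 (0.12, edgeR adjusted p = 0.707).

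Among the 7 counted costimulatory genes, 3 were called higher and 1 lower in LM1 and LM9 versus HR1, where 19.9% of all tested genes were higher and 23.6% lower. *Cd40*, a receptor of the TNF receptor family, was at 2.31 ± 0.273 CPM in HR1, 17.5 ± 1.01 CPM in LM1 and 10.9 ± 0.941 CPM in LM9 (log2 fold change 2.58, SE 0.18, edgeR adjusted p = 3.95e-05). *Icosl*, the ligand of ICOS on T cells, was higher by 1.71 (SE 0.21, edgeR adjusted p = 0.000488), and *Cd86*, the ligand of CD28 and CTLA-4 on antigen-presenting cells, was lower (−2.72, SE 0.58, edgeR adjusted p = 0.00574). Of the ligands of NKG2D, an activating receptor of natural killer cells, 5 of 8 were counted, with 2 higher and 2 lower against the same background. *Raet1e* (3.25, SE 0.90, edgeR adjusted p = 0.0185) and *Raet1d* (3.19, SE 0.74, edgeR adjusted p = 0.00842) were higher, and *H60b* (−2.17, SE 0.51, edgeR adjusted p = 0.00910) was lower. The *Raet1* genes are a family of similar genes, and whether their reads were split between members was not tested.

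Of 12 receptors of the ligands, 6 were among the counts. The highest model means were 1.52 CPM for *Pdcd1* (PD-1), 1.12 CPM for *Tigit*, 2.09 CPM for *Lag3*, 4.73 CPM for *Havcr2* and 5.92 CPM for *Selplg*. *Sirpa*, the macrophage receptor of CD47, stood higher, with 65.0 ± 24.5 CPM in HR1, 88.0 ± 8.01 CPM in LM1 and 92.6 ± 6.56 CPM in LM9, which did not differ beyond the spread (LM1 and LM9 versus HR1 0.47 on the log2 scale, SE 0.23, edgeR adjusted p = 0.124). *Havcr2*, encoding the galectin-9 receptor TIM-3, was the receptor called, and was lower (−1.10, SE 0.35, edgeR adjusted p = 0.0328), with a call in LM1 and not in LM9 against HR1. Of 6 genes for other partners of CD47 or its maturation, 1 was higher and 2 lower, near the 43.6% of all tested genes called. The higher one was *Thbs1*, whose product thrombospondin-1 binds CD47 (0.94, SE 0.25, edgeR adjusted p = 0.0154). *Calr*, the phagocytic signal calreticulin that opposes CD47, was lower (−0.70, SE 0.17, edgeR adjusted p = 0.00914, and −0.46 without the tumour labelled HR1 replicate 1), as was *Itgb3*, the integrin β3 chain (−5.68, SE 0.91, edgeR adjusted p = 0.00159). Of these 3, *Itgb3* was called against HR1 in each LM model, and *Thbs1* and *Calr* in LM9 alone. Without the tumour labelled HR1 replicate 1, the genes called higher and lower were 2 and 3 of the other inhibitory ligands, 3 and 1 of the costimulatory genes, 2 and 2 of the NKG2D ligands, 0 and 2 of the receptors and 2 and 2 of the partners of CD47, while 56.0% of all tested genes were called.

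Of 15 genes known to govern PD-L1 protein after transcription, 5 were lower and 0 higher in LM1 and LM9 versus HR1, with a median of −0.20. Of all tested genes, 23.6% were lower and 43.6% were called in either direction. *Cmtm6*, which keeps PD-L1 at the cell surface, was at 50.8 ± 23.7 CPM in HR1, 25.5 ± 2.02 CPM in LM1 and 23.7 ± 0.459 CPM in LM9 (log2 fold change −1.05, SE 0.24, edgeR adjusted p = 0.00805), and its relative *Cmtm4* was lower too (−1.14, SE 0.41, edgeR adjusted p = 0.0481), with no call in LM1 or LM9 by itself. The other genes called lower were *Stub1* (−0.98, edgeR adjusted p = 0.00156), *Usp22* (−0.66, edgeR adjusted p = 0.00238) and *Spop* (−0.60, edgeR adjusted p = 0.00577). Whether a gene raises or lowers the protein was not used in these counts. Without the tumour labelled HR1 replicate 1, the value of *Cmtm6* was −0.61 (edgeR adjusted p = 0.00514). That of *Cmtm4* was −1.57 (edgeR adjusted p = 5.71e-05), with calls in LM1 (−1.37) and LM9 (−1.77). In that fit 8 of the 15 were lower and 1 higher, with 28.5% of all tested genes lower and 27.5% higher.

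Interferon-γ signalling is known to induce *Cd274*. Of 13 of its genes, 8 were higher and 2 lower in LM1 and LM9 versus HR1, and 5 were higher and 1 lower in LM9 versus LM1, with medians of 0.63 and 0.53. Over all tested genes, 19.9% were higher and 43.6% called in the first comparison, and 11.5% higher and 22.0% called in the second. Without the tumour labelled HR1 replicate 1 the counts were 8 and 2, and 7 and 1, with 56.0% and 45.5% of all tested genes called. *Nlrc5*, an activator of MHC class I genes, was at 0.765 ± 0.357, 1.81 ± 0.361 and 12.3 ± 6.45 CPM in HR1, LM1 and LM9, and its log2 fold change in LM1 and LM9 versus HR1 was 2.62 (SE 0.47, edgeR adjusted p = 0.00261). *Stat2*, a signal transducer of the interferon response, was at 28.8 ± 5.98, 57.7 ± 9.76 and 219 ± 51.5 CPM (1.97, SE 0.22, edgeR adjusted p = 0.000280). The means of these 2 genes rose from HR1 to LM1 to LM9, as did those of *Cd274*, *Pvr* and *Nectin2*. Those of *Jak2*, *Ifngr1*, *Ifngr2*, *Irf2* and *Socs1* did not. How many of all genes have this order was not counted, and a link to the ligands was not tested. The 2 lower genes were *Jak2* (−0.74, SE 0.27, edgeR adjusted p = 0.0493), a kinase of the receptor, and *Ifngr2*, a chain of the receptor (−0.52, SE 0.16, edgeR adjusted p = 0.0286). Against HR1, *Stat2* was called in each LM model, *Jak2* in LM1 alone and *Nlrc5* and *Ifngr2* in LM9 alone.

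**Figure D5:**
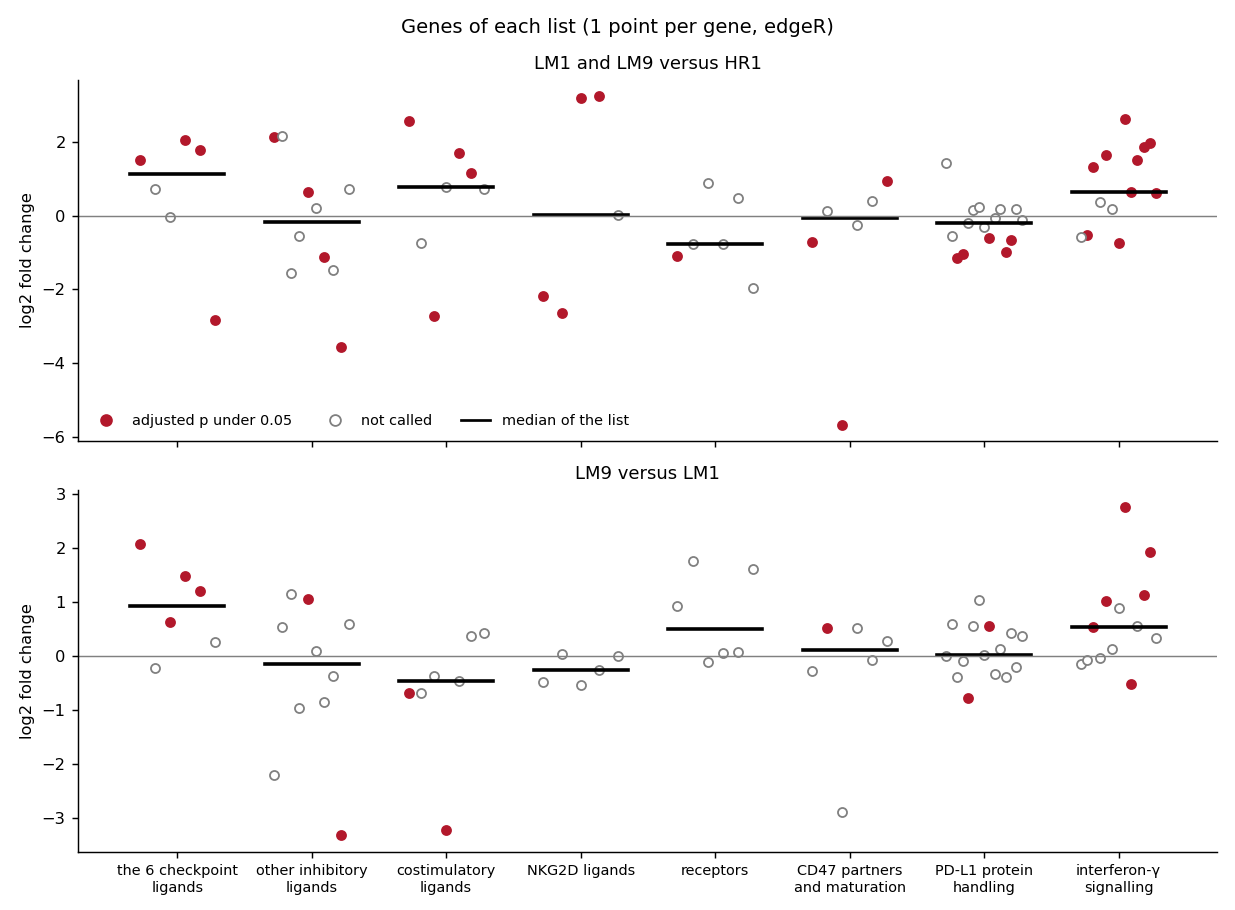
Log2 fold changes (vertical axes, edgeR) of the genes of each list in LM1 and LM9 versus HR1 (upper) and LM9 versus LM1 (lower), with 1 point per gene, filled where the adjusted p was under 0.05, and a line at the median. The medians of the 6 ligands are 1.13 and 0.92 and those of interferon-γ signalling 0.63 and 0.53, while the genes for PD-L1 protein handling have medians of −0.20 and 0.0072.

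Markers of other cell types also differed between the models, and their part in the levels of the ligands was not tested. In LM1 and LM9 versus HR1, 43.6% of all tested genes were called, 19.9% higher and 23.6% lower. Of 8 fibroblast markers 7 were called lower in LM1 and LM9 versus HR1, led by *Dcn* and *Col1a2*, and their sum was from 22042 to 35159 CPM in HR1, 10358 to 13782 CPM in LM1 and 8971 to 10534 CPM in LM9. When the tumour labelled HR1 replicate 1 was left out, 6 of the 8 were called lower, and *Dcn* moved from −5.13 to −1.12 on the log2 scale and lost its call (edgeR adjusted p = 0.0553). Of 6 counted endothelial markers 4 were lower, among them *Pecam1*, and 2, *Cdh5* and *Kdr*, were higher, with sums from 4.84 to 26.8 CPM in HR1, 163 to 226 CPM in LM1 and 252 to 290.01 CPM in LM9. In LM1 and LM9 these sums were mostly *Cdh5* (means of 158 and 238 CPM) and *Kdr* (27.1 and 32.1 CPM). *Tie1* was at 0 in 1 LM9 tumour. Of 11 lymphoid markers only *Gzma* and *Cd4* were among the counts, with *Cd4* called lower and at 0 in 1 LM9 tumour, and sums from 0.901 to 6.08 CPM in HR1 and at most 1.22 CPM in LM1 and 0.408 CPM in LM9. Markers of mammary epithelium were uneven between the tumours. *Krt14*, a basal keratin, was at 1.56, 31.4 and 108.9 CPM in the HR1 tumours, 152 to 175 CPM in LM1 and 12.2 to 15.4 CPM in LM9. *Epcam* averaged 2.17 CPM in HR1, 0.167 CPM in LM1 and 0.669 CPM in LM9, and *Krt5*, *Krt18* or *Krt19* was at 0 in 4 tumours. The sum of 6 epithelial markers was 7.55 to 121 CPM in HR1, 158 to 181 CPM in LM1 and 14.4 to 18.0 CPM in LM9, and 2 of them, *Krt5* and *Epcam*, were called lower in LM1 and LM9 versus HR1 (for *Epcam* −2.66 on the log2 scale, and −1.56 without the tumour labelled HR1 replicate 1). *Krt5*, at 3.79 ± 5.95 CPM in HR1, was called in LM9 (edgeR adjusted p = 0.00943) and not in LM1 (edgeR adjusted p = 0.254). *Epcam* was called in LM1 (edgeR adjusted p = 0.0164) and not in LM9 (edgeR adjusted p = 0.137).

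The genes beside each ligand on its chromosome were read for shared changes, with 3 listed genes on either side. Around *Vsir*, 4 of the 6 neighbours were also called lower in LM1 and LM9 versus HR1. These were *Psap* (log2 fold change −1.17, SE 0.15, edgeR adjusted p = 0.000572), *Unc5b* (−1.38, SE 0.18, edgeR adjusted p = 0.000638), *Sgpl1* (−1.12, SE 0.15, edgeR adjusted p = 0.000612) and *Slc29a3* (−0.68, SE 0.13, edgeR adjusted p = 0.00391). The change of *Vsir* itself was larger than that of any of them. *Psap* was not called in LM9 versus HR1 (−0.45, edgeR adjusted p = 0.0729), and was in LM1 (−1.88, edgeR adjusted p = 0.000273). *Chst3* and *Cdh23* were not called. Around *Pvr* and *Nectin2*, which lie within 3 genes of each other, *Bcl3*, which encodes a regulator of NF-κB, was higher (2.17, SE 0.48, edgeR adjusted p = 0.00695), as was *Tomm40*, which encodes an import channel of mitochondria (0.64, SE 0.13, edgeR adjusted p = 0.00547), while *Apoe*, the apolipoprotein E gene near *Nectin2*, was lower (−5.72, SE 0.46, edgeR adjusted p = 7.61e-05). Around *Cd274*, *Jak2* (−0.74), *Pdcd1lg2* (−3.56) and *Ermp1* (−1.41, edgeR adjusted p = 0.0221) were lower and *Insl6* (1.37, edgeR adjusted p = 0.000744) was higher. Around *Cd276*, *4930461G14Rik* was higher (3.03, edgeR adjusted p = 0.00120). *Rec114* was lower over LM1 and LM9 combined (−3.98, edgeR adjusted p = 0.00328), with means of 12.2 CPM in HR1, 23.6 CPM in LM1 and 0.0226 CPM in LM9. Its value in LM1 versus HR1 was 0.95 and not called (edgeR adjusted p = 0.332), and LM9 was lower (−8.91, edgeR adjusted p = 0.000802). Around *Cd47*, *Dzip3* (0.74, edgeR adjusted p = 0.0234) and *Cip2a* (1.04, edgeR adjusted p = 0.00243) were higher and *Cblb* was lower (−0.78, edgeR adjusted p = 0.00443). Of these neighbours, *Jak2* and *Tomm40* were called against HR1 in LM1 and not in LM9, and *Ermp1* and *Dzip3* in LM9 and not in LM1. Of all tested genes 43.6% were called in LM1 and LM9 versus HR1.

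The genes whose log2 CPM was most like that of each ligand over the 9 tumours were named as a description. The 9 points share 3 models, so genes that differ between the models in the same way score high. For *Vsir* they were *Gucd1* (Pearson r = 0.992), *Cmtm3* (r = 0.992) and *Flot1* (r = 0.987), and for *Cd274* *Gbp2b*, an interferon-induced guanylate-binding protein (r = 0.995), *Mpdz* (r = 0.993) and *Tor1aip1* (r = 0.992). For *Pvr* they were *Pik3r5*, *Srp72* and *Cgnl1* (r from 0.988 to 0.989) and for *Nectin2* *Efhd2*, *Pi4k2b* and *Homer2* (r from 0.984 to 0.985). For *Cd276* they were *Cdk6*, *Ddx51* and *1700025G04Rik* (r from 0.994 to 0.995). *Cd47* had the lowest values, with *P4ha1* (r = 0.966), a collagen prolyl hydroxylase, *Got1* (r = 0.965) and *4930447F24Rik* (r = 0.964). Ranked by Spearman rho instead, 1 of these 3 genes was kept for *Cd47*, 1 for *Nectin2* and 0 for the other ligands.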

How the data were processed

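The deposited files hold whole-number read counts per gene for each of the 9 tumours. According to the methods, the authors aligned single-end 50-nt reads to mm10 with STAR and counted those on the exons of each gene with QuasR; the counts were not normalised. Groups and replicate numbers came from the sample labels. Symbols came from RefSeq, or from GENCODE vM21 where RefSeq had none. Positions and exon lengths came from GENCODE vM21, which gave a length for 13512 of 14108 genes.

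Counts were scaled by TMM (factors 0.928 to 1.05) and filtered by edgeR's expression filter. In R 4.3.3, edgeR 4.0.16 was used for a robust quasi-likelihood F-test, fitted as 1 model over HR1, LM1 and LM9, and p-values were adjusted over 14086 genes. The study's own method, limma-voom, was an alternative. Exact permutation tests of 3 against 3 tumours cannot go below 0.1. No 2 tumours of a model differed by as little as sampling noise. On simulated counts for LM1 and LM9 versus HR1 (14086 genes), 100 genes were changed by 1 and 100 by 2 on the log2 scale. In that setting edgeR recovered 36% and 81% of them, with 7.87% false calls. False calls were 8.47% for limma-voom and 29.8% for DESeq2. Far fewer genes were changed there than the 43.6% called in the data, so these rates may not hold for the data. RPKM was CPM divided by the union of exons.

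The 6 ligands and all lists were chosen with earlier results of these data known. Each list's genes named are up to 2 called higher and 2 called lower with the largest change in LM1 and LM9 versus HR1 and a mean of at least 1 CPM. The 3 most similar genes and the neighbours follow a rule as well. *Sirpa*, *Pdcd1*, *Tigit*, *Lag3*, *Selplg*, *Csf1r*, *Ptprc*, *Cd68*, *Adgre1*, *Gzma*, *Tie1*, *Krt14*, *Krt18* and *Krt19* were named after their values were seen. So were *Itgam*, *Tyrobp*, *Stub1*, *Usp22*, *Spop*, *Ifngr1*, *Irf2* and *Socs1*. Alternatives were other size factors (RLE, library size only), other filters (none, or at least 1 CPM in 3 tumours), DESeq2 1.42.0, limma-voom (limma 3.58.1), only the tumours compared, the replicate number as a block and each tumour left out. List counts without the tumour labelled HR1 replicate 1 were added after its *Nfib* level was seen. A further promoter motif is not reported here.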

Additional observations from a re-analysis of the deposited data

Results flagged for a closer look

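For 4 of the ligands, the difference from HR1 itself differed between the 2 metastatic models, as tested by LM9 versus LM1 within the edgeR model. The log2 differences were 2.07 for *Cd274* (SE 0.26), 1.47 for *Nectin2* (SE 0.24), 1.20 for *Pvr* (SE 0.19) and 0.63 for *Cd47* (SE 0.19), all higher in LM9 and in 3 of 3 LM9 tumours above every LM1 tumour. Of all tested genes, 22.0% were called in this comparison, and 45.5% without the tumour labelled HR1 replicate 1, where the same 4 ligands were called. The share of all genes without overlap between LM9 and LM1 was not counted. The call of *Cd47* was lost with library sizes only, with the replicate number as a block (edgeR adjusted p = 0.0666) and when any LM1 or LM9 tumour was left out. *Cd276* also had no overlap between LM9 and LM1, with all LM9 tumours lower, but was not called (log2 fold change −0.24, SE 0.33, edgeR adjusted p = 0.641).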

How the results depend on the processing

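In 16 alternatives of LM1 and LM9 versus HR1 and 17 of each other comparison, *Vsir*, *Pvr* and *Nectin2* kept their direction and call against HR1, as did *Cd274* in LM9. The log2 fold change of *Vsir* in LM1 and LM9 versus HR1 lay between −2.97 and −2.62. *Cd276* was called in LM1 and LM9 versus HR1 by DESeq2 (0.73, adjusted p = 0.0390) and limma-voom (0.88, adjusted p = 0.0415), and in LM1 versus HR1 by DESeq2 (0.86) and limma-voom (1.00). *Cd47*, not called in LM1 and LM9 versus HR1, changed sign with library sizes only (0.0040) and limma-voom (0.0024). In LM9 versus LM1 it lost its call with library sizes only (0.57). With only the tumours compared, genes called moved to 3008 in LM1 versus HR1 and 7709 in LM9 versus LM1, where LM1 and LM9 are tested without the spread of HR1.

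Leaving out each tumour in turn, *Cd276* ranged from 0.40 to 1.05 in LM1 and LM9 versus HR1 and from 0.52 to 1.17 in LM1 versus HR1. *Cd47* ranged from −0.22 to 0.086 in LM1 and LM9 versus HR1, from −0.53 to −0.23 in LM1 and from 0.58 to 0.67 in LM9 versus LM1, and *Cd274* in LM1 from 0.26 to 0.76. Ligands called in LM1 versus HR1 ranged from 3 to 6, with 6 without the tumour labelled HR1 replicate 1. Genes called ranged from 3121 to 7453 in LM1, 3768 to 7862 in LM9 and 1150 to 6413 in LM9 versus LM1, lowest when an LM tumour was left out and highest without the tumour labelled HR1 replicate 1.

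The replicate numbers do not pair the tumours, since same-numbered tumours deviated together with r from −0.117 to 0.162. With the replicate number as a block, genes called were 5234, 4204, 5078 and 2295 in the 4 comparisons against 6138, 4994, 5958 and 3102 without it, and *Cd47* in LM9 versus LM1 lost its call (0.63, adjusted p = 0.0666). It changed no other call of a ligand. The cause of these shifts was not tested. The 3 tumours per model limit calls of small changes.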
